A study of Mus musculus with 4 samples.

Results

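The primary cilium is a microtubule-based antenna that grows from the mother centriole, and motile cilia beat by means of axonemal dyneins. This section follows the genes of both structures in immortalized mouse melanocytes. The members were chosen by gene symbol: every gene whose name starts with Ift or Bbs and a digit, with Dnah, Dnaic, Dnali or Dnal and a digit, with Tctn, or with Nphp and a digit, together with Arl13b, Cc2d2a, Ofd1, Dync2h1, Dync2li1 and Foxj1. Of the 54 genes that fit these names, 46 had a probe set of their own, out of 18193 genes measured. The other 8, among them Arl13b, Dnah3, Dnah7b, Dnah7c, Dnah10 and Dnah14, were not analysed here.

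RNA was hybridized to Affymetrix arrays for 4 lines derived from the skin of C57BL/6J pups aged 3 days, with 1 array per line. Lines 10d (bcat*) and 9v (WT) carry these genotypes in both the sample labels and the article, whereas line 13d is labelled bcat* and line 14d WT while the article states the reverse. The bcat* pups expressed a stable, active β-catenin mutant in the melanocyte lineage, and the WT pups did not. By the labels, lines 10d and 9v were male and lines 13d and 14d female, although the article describes the donor mice as male. The lines came from different pups, were freed of fibroblasts with the drug G418 and grown with 200 nM TPA, a phorbol ester, and the RNA had integrity numbers from 9.7 to 9.9. Each line is a single culture, so that a difference between lines and an effect of genotype cannot be told apart in any pair of lines.

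Each value below is a deposited intensity, the linear brightness of a probe set, and 32 is used as the detection level. Across the 4 arrays, median intensities were 7 to 8 and 35.8% to 36.1% of probe sets were detected. All 10 melanocyte markers examined, among them Mitf, Tyr and Pmel, were detected. Of other cell types, 1 of 5 keratinocyte markers (Krt10), 1 of 6 fibroblast markers (Col1a2), none of 2 Schwann cell markers and none of 7 ciliated cell markers, some of them members, were detected in any line. Xist had intensities of 4 in line 10d, 2124 in line 13d, 1768 in line 14d and 4 in line 9v, matching the labelled sexes. The β-catenin gene Ctnnb1 read 31799 in line 10d, 34368 in line 13d, 31844 in line 14d and 30254 in line 9v.

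Cilia are built by intraflagellar transport (IFT), in which trains of the IFT-B and IFT-A complexes are carried outwards by kinesin-2 and back by dynein-2. The BBSome, an assembly of Bbs proteins, moves membrane proteins out of the cilium, and the transition zone at its base acts as a gate. In motile cilia, rows of axonemal dyneins, built from heavy, intermediate and light chains, slide the microtubules, and the transcription factor Foxj1 switches on this programme. Rfx transcription factors bind the X-box, a palindromic element found before many cilium genes.

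The windows around the start sites of 5 members are shown because the differences between lines described further on turn on these genes: both detected intermediate chains of axonemal dynein, Dnaic1 and Dnaic2, and the BBSome subunits Bbs4, Bbs5 and Bbs7. Each window runs from 250 bases before to 50 bases after a start site in RefSeq (GRCm38.p6), and is written 5′ to 3′ on the strand of the gene. Capitals mark matches to the half-site GTTGCC on either strand or to an X-box-like pattern, GTNNCC followed by 1 to 3 bases of any kind and GGNNAC, which can overlap a half-site.
Dnaic1 (chr4:41569544-41569843, plus strand): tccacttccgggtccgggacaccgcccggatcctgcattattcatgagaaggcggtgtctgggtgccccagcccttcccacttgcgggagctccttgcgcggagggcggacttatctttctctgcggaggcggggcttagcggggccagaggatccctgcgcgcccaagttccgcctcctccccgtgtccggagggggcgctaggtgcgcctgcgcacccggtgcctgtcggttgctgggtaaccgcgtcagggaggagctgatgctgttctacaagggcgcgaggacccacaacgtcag
Dnaic2 (chr11:114727169-114727468, plus strand): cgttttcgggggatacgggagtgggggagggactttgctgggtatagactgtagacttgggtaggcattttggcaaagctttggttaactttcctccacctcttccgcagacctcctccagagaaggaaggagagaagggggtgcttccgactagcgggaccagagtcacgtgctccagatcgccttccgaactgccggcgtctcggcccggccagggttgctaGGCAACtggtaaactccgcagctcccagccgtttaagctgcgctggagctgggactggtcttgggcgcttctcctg
Bbs4 (chr9:59353459-59353758, minus strand): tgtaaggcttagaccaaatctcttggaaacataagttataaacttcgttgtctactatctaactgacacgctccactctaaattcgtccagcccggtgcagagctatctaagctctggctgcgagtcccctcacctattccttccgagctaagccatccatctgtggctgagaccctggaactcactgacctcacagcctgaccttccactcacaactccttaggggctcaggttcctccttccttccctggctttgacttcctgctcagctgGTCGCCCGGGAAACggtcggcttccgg
Bbs5 (chr2:69646921-69647220, plus strand): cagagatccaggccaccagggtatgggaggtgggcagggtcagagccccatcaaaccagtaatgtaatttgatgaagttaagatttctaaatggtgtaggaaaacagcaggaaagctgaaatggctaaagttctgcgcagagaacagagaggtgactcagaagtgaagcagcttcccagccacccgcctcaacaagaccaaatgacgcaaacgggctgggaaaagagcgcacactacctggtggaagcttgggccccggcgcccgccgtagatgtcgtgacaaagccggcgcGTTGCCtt
Bbs7 (chr3:36613340-36613639, minus strand): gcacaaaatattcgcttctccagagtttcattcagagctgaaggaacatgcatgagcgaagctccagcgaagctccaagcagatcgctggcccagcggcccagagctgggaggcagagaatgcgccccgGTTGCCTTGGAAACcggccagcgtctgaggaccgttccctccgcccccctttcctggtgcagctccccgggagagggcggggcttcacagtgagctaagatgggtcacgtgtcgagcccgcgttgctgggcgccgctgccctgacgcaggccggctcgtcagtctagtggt
Bbs7 carried an X-box-like match with a half-site in it, Bbs4 an X-box-like match, Dnaic2 and Bbs5 a half-site each, and Dnaic1 neither. This says only that these exact letters are not in the Dnaic1 window. That window holds gttgctgggtaac, and the Dnaic2 window holds gttgctaGGCAAC. Each departs from the X-box-like pattern in 1 base, a T for the last C of GTNNCC. Looser patterns were not searched. Windows were held for 46 of the 54 members. A half-site was present for 19 of them (41.3%), beside 14.1% of all 27025 genes with a window, and the X-box-like pattern for 9 (19.6%), beside 4% of all. Among detected members with a window, a half-site was found for 5 of the 13 that lay at least 2-fold apart over the lines and for 6 of the 13 that did not. The X-box-like pattern was found for 2 and 5 of them, respectively, and neither split was tested. These are matches of letters, and binding was not measured.

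In the melanocyte lines, most measured genes of the primary cilium were detected and most genes of the motile axoneme were not. Of the 46 measured members, 30 were detected in at least 1 line, and 26 of these in all 4. Of all 18193 measured genes, 9415 were detected in at least 1 line, and 8324 of these in all 4. They included all 14 IFT genes, 6 of 8 Bbs genes, 4 of 5 genes of the transition zone and 4 of 5 axonemal intermediate and light chains. None of the 10 measured heavy chains of axonemal dynein was detected, with intensities from 4 to 7, the highest for Dnah17, at 7 in each line. A probe set listed with both Dnah7b and Dnah7c, which therefore names neither, had intensities of 1619 in line 10d, 1112 in line 13d, 422 in line 14d and 1052 in line 9v. Foxj1 had an intensity of 7 in each line. The other members under the detection level were Bbs1, Bbs12, Nphp4, Dnali1 and Dync2h1, at no more than 15.

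**Figure D1:**
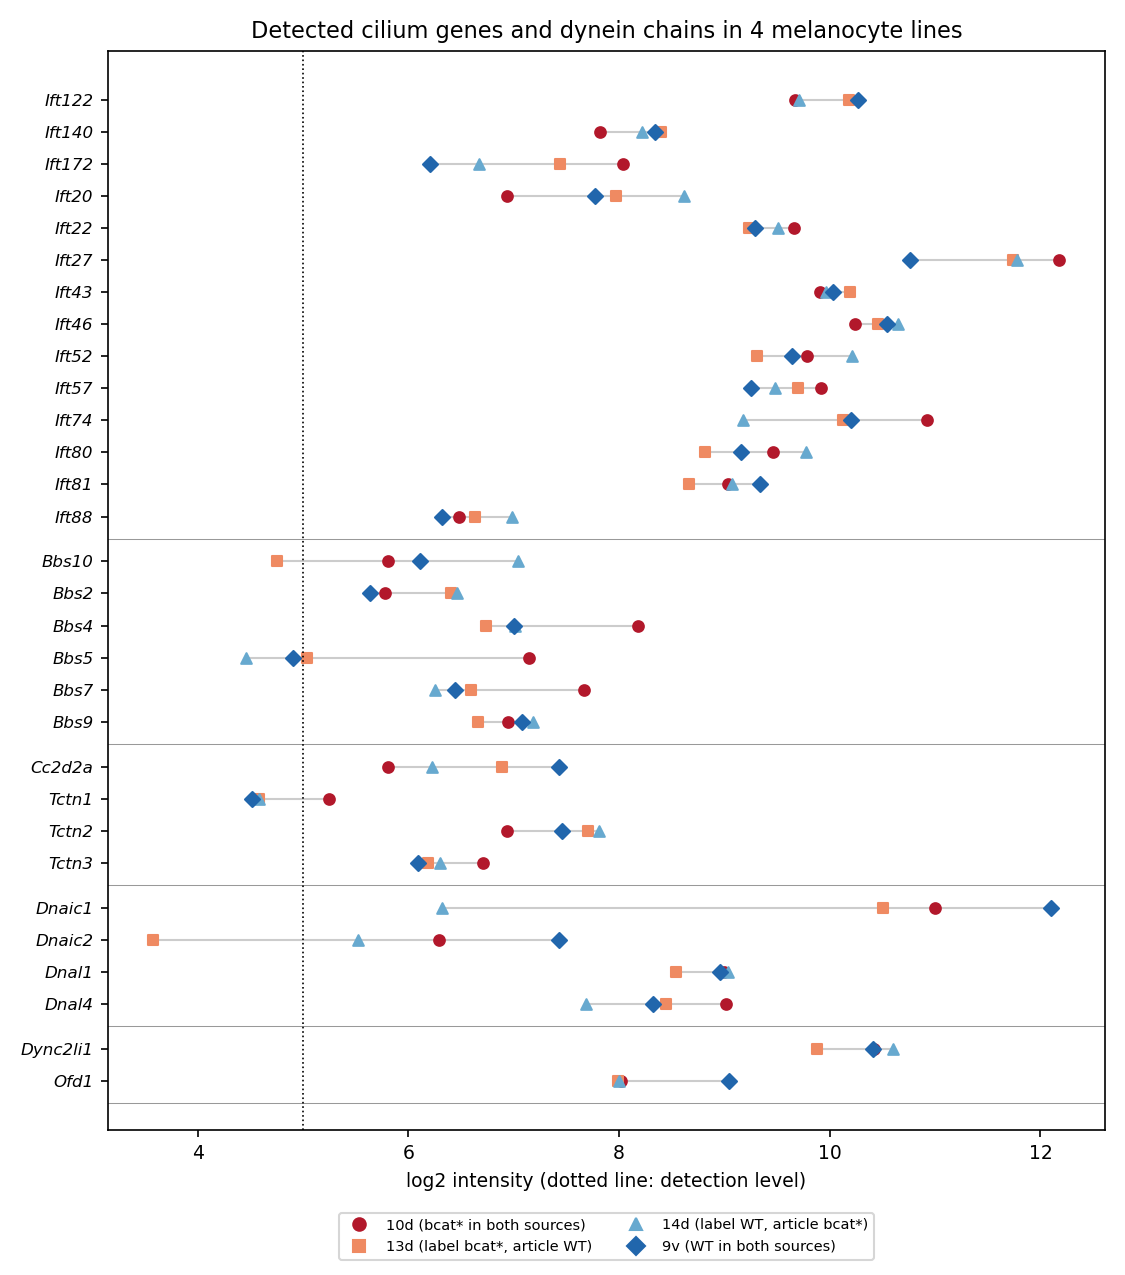
Log2 intensity (horizontal axis) of the 30 detected members in lines 10d, 13d, 14d and 9v, 1 array each and therefore without error bars, grouped as IFT, Bbs, transition zone, axonemal dynein chains and other genes. Dnaic1 spans the longest range, from 6.32 in line 14d to 12.10 in line 9v, and Bbs4, Bbs5 and Bbs7 have their highest point in line 10d.

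Dnaic1, an intermediate chain of the outer dynein arm, differed more between the lines than any other detected member. Its 2 probe sets had intensities of 2044 and 1792 in line 10d, 1463 and 1319 in line 13d, 80 and 96 in line 14d, and 4397 and 3830 in line 9v. Line 14d was thus far below the others, and both probe sets, which were designed from the same transcript sequence, gave the same order of lines. The dimmer of them has the suffix _x_at, which marks possible cross-hybridization. In line 10d, Dnaic1 stood at 0.465 and 0.468 times its level in line 9v. In line 13d, it was 18.3-fold and 13.7-fold higher than in line 14d. The brightest line exceeded the dimmest by 55.0-fold with the brighter probe set, and 53 of 9415 detected genes (0.563%) spanned a wider range.

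Under the labels, Dnaic1 was lower in the bcat* line of one pair (10d against 9v) and higher in the bcat* line of the other (13d against 14d). Under the article it was lower in both bcat* lines, 10d and 14d, than in the WT line it is paired with here, but line 10d remained above line 13d. A limma fit of bcat* against WT gave a log2 difference of 1.54 (95% confidence interval -4.33 to 7.42, adjusted p = 0.846) with the labelled genotypes and of -2.65 (-7.86 to 2.56, adjusted p = 0.984) with those of the article.

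Dnaic2, the second intermediate chain of the outer arm, had intensities of 78 in line 10d, 12 in line 13d, 46 in line 14d and 173 in line 9v. It was below the detection level in line 13d and highest in line 9v, with a ratio of 0.451 for line 10d against line 9v. Its other probe set read 6 in every line, and the mean log2 of both, which was raised to the detection level, gave a difference of -0.01 for this pair. The detected probe set has the suffix _x_at, which marks possible cross-hybridization, and without such probe sets Dnaic2 has no detected value. Col1a2, the detected fibroblast marker, had intensities of 80, 24, 17 and 175 in lines 10d, 13d, 14d and 9v, while the other 5 fibroblast markers were at 23 or below. The 6 markers summed to 126, 71, 66 and 227 in the same order, and their part in the Dnaic2 values was not tested.

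The light chains were more even. Dnal1, of the outer arm, had intensities of 513 in line 10d, 371 in line 13d, 524 in line 14d and 497 in line 9v. Dnal4 had intensities of 518 in line 10d, 349 in line 13d, 206 in line 14d and 320 in line 9v, a 2.51-fold range with line 14d lowest, as for Dnaic1.

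**Figure D2:**
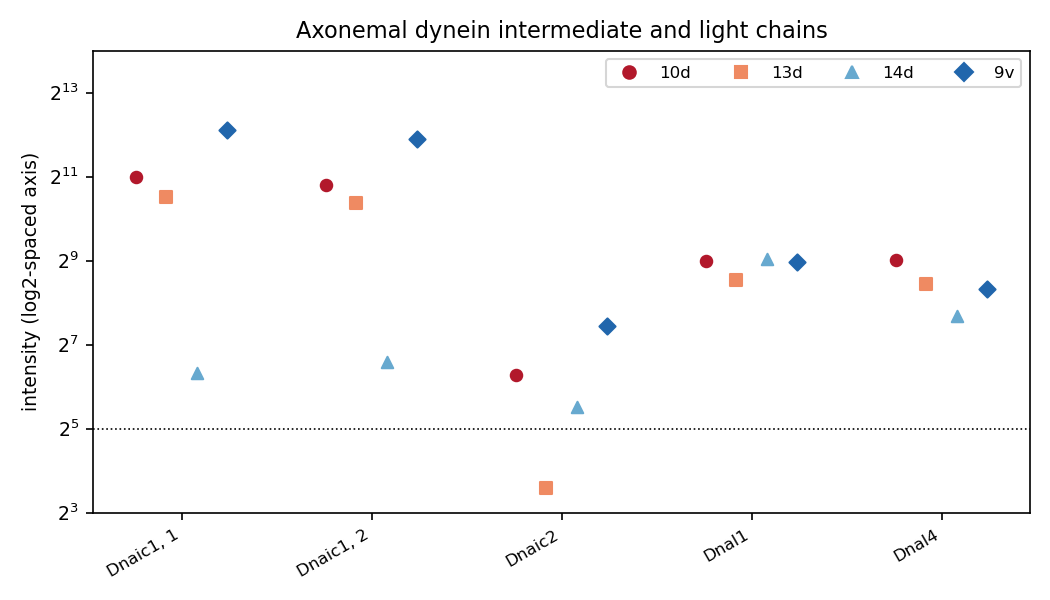
Intensity (axis spaced by log2, dotted line at the detection level of 32) of each detected probe set of Dnaic1, Dnaic2, Dnal1 and Dnal4 in lines 10d, 13d, 14d and 9v, 1 array each. Both Dnaic1 probe sets fall to 80 and 96 in line 14d, and Dnaic2 lies under the dotted line in line 13d.

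To ask which members differed where the genotypes are not in dispute, bcat* line 10d was compared with WT line 9v. Values under 32 were raised to 32 before ratios were taken. At least 2-fold higher in line 10d were 5 of 30 detected members, Bbs4, Bbs5, Bbs7, Ift27 and Ift172, beside 7.85% of all 9131 detected genes. At least 2-fold lower were 4 members, Dnaic1, Dnaic2, Cc2d2a and Ofd1, beside 10% of all genes. The median log2 difference was 0.09 for the members and 0.00 for all genes, and 17 members lay above 0 and 13 below. With 1 array per line, these counts have no replicate check and no test was made of them. Centring each array on its median shifts line 10d against line 9v by 0.19 on the log2 scale. These medians were the whole numbers 7 in line 10d and 8 in line 9v, both below the detection level. After centring, the same 5 members were higher but only Cc2d2a was at least 2-fold lower. Calls over all genes turned to 1039 higher and 708 lower, against 717 higher and 915 lower as deposited. Quantile normalization kept the same 5 and 4 members, with 718 genes higher and 911 lower.

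Of the BBSome subunits, Bbs4, Bbs5 and Bbs7 stood highest in line 10d. Bbs4 had 3 detected probe sets (a further one read 4 throughout), with intensities of 291, 229 and 144 in line 10d, 107, 74 and 34 in line 13d, 129, 88 and 56 in line 14d, and 128, 112 and 49 in line 9v. In each of them line 10d was above all other lines, by 2.04-fold to 2.94-fold over line 9v. Bbs5 had an intensity of 142 in line 10d, 33 in line 13d, 22 in line 14d and 30 in line 9v, so that it was at or near the detection level outside line 10d, where it was at least 4.44-fold higher than in line 9v. Its only probe set has the suffix _a_at and is left out when probe sets with the suffixes _x_at, _s_at and _a_at are dropped. Bbs7 had intensities of 203 in line 10d, 97 in line 13d, 76 in line 14d and 87 in line 9v, 2.33-fold higher in line 10d than in line 9v. Its other probe set read 5 in every line, and the mean log2 of both lay under the detection level in each line.

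Other subunits did not share this order. Bbs2 had intensities of 55 in line 10d, 85 in line 13d, 88 in line 14d and 50 in line 9v, and Bbs9 of 124, 101, 145 and 135 in the same order. Ttc8 and Bbip1, subunits whose names lie outside the rule, fell short of WT line 9v by 2-fold or more in line 10d. Ttc8 had intensities of 314 in line 10d, 280 in line 13d, 960 in line 14d and 642 in line 9v. Bbip1 had intensities of 1526 in line 10d, 1758 in line 13d, 5941 in line 14d and 3089 in line 9v. Both were thus lower in lines 10d and 13d than in lines 14d and 9v. Lztfl1, a regulator of BBSome entry into cilia, was 2.15-fold higher in line 10d, at 1013, than in line 9v, at 472. Bbs10, a chaperonin-like protein that helps to assemble the BBSome, had intensities of 56 in line 10d, 27 in line 13d, 132 in line 14d and 69 in line 9v, and its other detected probe set read 34, 12, 29 and 23, with the opposite order of lines 10d and 9v.

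**Figure D3:**
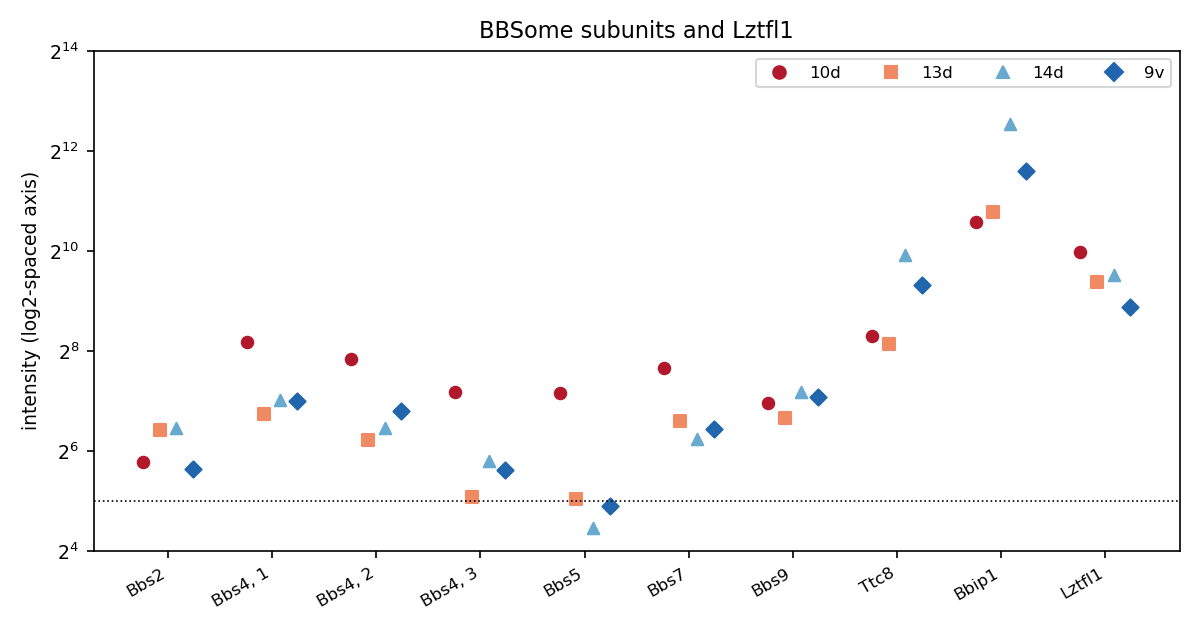
Intensity (axis spaced by log2, dotted line at the detection level of 32) of BBSome subunits and of Lztfl1 in lines 10d, 13d, 14d and 9v, 1 array each, with each detected Bbs4 probe set apart. Bbs4, Bbs5 and Bbs7 are highest in line 10d, whereas Ttc8 and Bbip1 are lower in lines 10d and 13d than in lines 14d and 9v.

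Among the 14 IFT genes, log2 differences of line 10d against line 9v ranged from -0.83 to 1.83 with a median of 0.14. Ift172, a peripheral IFT-B protein, had intensities of 264 in line 10d, 174 in line 13d, 102 in line 14d and 74 in line 9v, a ratio of 3.57 for line 10d against line 9v. Ift27, a Rab-like GTPase of IFT-B, was measured by 3 probe sets with intensities of 4637, 914 and 667 in line 10d, 3420, 668 and 477 in line 13d, 3523, 801 and 517 in line 14d, and 1736, 315 and 335 in line 9v. Line 9v was the lowest in all 3 probe sets, by 1.99-fold to 2.90-fold against line 10d. The brightest and the dimmest of these probe sets have the suffix _x_at, and the remaining one gave the 2.90-fold. Hspb11 (Ift25), the partner of Ift27, had intensities of 347 in line 10d, 304 in line 13d, 623 in line 14d and 1041 in line 9v, and was thus highest where Ift27 was lowest.

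Ift74, which with Ift81 binds tubulin, had intensities of 1943 in line 10d, 1124 in line 13d, 581 in line 14d and 1180 in line 9v. Ift81 had intensities of 521, 404, 538 and 648 in the same order and did not follow Ift74, and its other detected probe set read 39, 30, 41 and 29. Ift20, an IFT-B protein also found at the Golgi, had its lowest intensity, 123, in line 10d, against 251 in line 13d, 394 in line 14d and 218 in line 9v. The IFT-A genes Ift122, Ift140 and Ift43 had their lowest intensity in line 10d, which the brightest line exceeded by 1.21-fold for Ift43 and 1.52-fold for Ift122. The other probe set of Ift122 read 207 in line 10d, 333 in line 13d, 232 in line 14d and 395 in line 9v, a 1.91-fold range. Of IFT-A genes outside the naming rule, Wdr35 was also lowest in line 10d, at 324, whereas Wdr19, at 128, and Ttc21b, at 444, were highest there. Of the remaining IFT-B genes, Ift22, Ift46, Ift52, Ift57, Ift80, Ift81 and Ift88 spanned from 1.33-fold to 1.93-fold.

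Cc2d2a, which builds the transition zone, had intensities of 56 in line 10d, 119 in line 13d, 75 in line 14d and 173 in line 9v, a ratio of 0.324 for line 10d against line 9v. The tectonic Tctn2 had intensities of 123 in line 10d, 209 in line 13d, 224 in line 14d and 176 in line 9v, and Tctn3 of 105, 73, 79 and 68 in the same order, so that line 10d was the lowest for Tctn2 and the highest for Tctn3. Tctn1 passed the detection level only in line 10d, at 38. Ofd1, a centriolar protein encoded on the X chromosome, had intensities of 259 in line 10d, 254 in line 13d, 256 in line 14d and 527 in line 9v, so that line 9v stood apart. Of dynein-2, the motor of retrograde IFT, the light intermediate chain Dync2li1 had intensities of 1374 in line 10d, 944 in line 13d, 1552 in line 14d and 1361 in line 9v, while the heavy chain Dync2h1 read 15, 11, 5 and 14 in the same order.

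Over all 4 lines, 13 of 30 detected members were at least 2-fold apart between the brightest and the dimmest line, beside 40.1% of 9415 detected genes, and the median span was 1.84-fold for the members and 1.79-fold for all genes. The count was 8 when line 10d was left out. A range over fewer lines can only be as wide or narrower, and the share of all genes over the remaining lines was not computed. Line 10d was the dimmest line for 7 members, beside 28.6% of all genes. Line 13d was the brightest line for 2 members and the dimmest for 11, beside 21.7% and 22.5% of all genes. Lines 10d and 14d were each the brightest for 11 members and line 9v for 6, beside 29.4%, 29.7% and 19.1% of all genes. Cilia are taken down before a cell divides. The intensities of 9 genes of proliferating cells summed to 37470 in line 10d, 72197 in line 13d, 52731 in line 14d and 53441 in line 9v. Line 13d was the highest for each of the 9 genes, while line 10d was the lowest for the sum but not for Mki67, Mcm5 and Aurka. Their part in the member differences was not tested.

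The pair of lines 13d and 14d shares no array with the pair of lines 10d and 9v. Of 29 members detected in it, Dnaic1 was at least 2-fold higher in line 13d, beside 11% of all genes, and Bbs10 at least 4.13-fold lower, beside 8.73% at least 2-fold lower. The 5 members higher in line 10d than in line 9v had log2 differences of -0.27 to 0.77 between lines 13d and 14d, Bbs4 being the lowest and Ift172 the highest. Of the 4 lower members, Cc2d2a had 0.67, Ofd1 -0.01 and Dnaic1 4.19, and Dnaic2 had a ratio of 0.696 with its value in line 13d raised to 32. With values raised to 32, Dnaic1 was the only 1 of 30 detected members at least 2-fold apart in both pairs of lines. Its order, lower in line 10d than in 9v and in line 14d than in 13d, held for 113 of 9415 detected genes (1.2%). The reverse order held for 64 genes (0.68%). Lines 10d and 13d were both at least 2-fold higher than the line paired with them for 165 genes (1.75%), and both lower for 274 (2.91%). The deposited intensities of Dnaic2 in the second pair, 12 in line 13d and 46 in line 14d, are further apart, but the lower of them is below the detection level and gives only a bound.

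**Figure D4:**
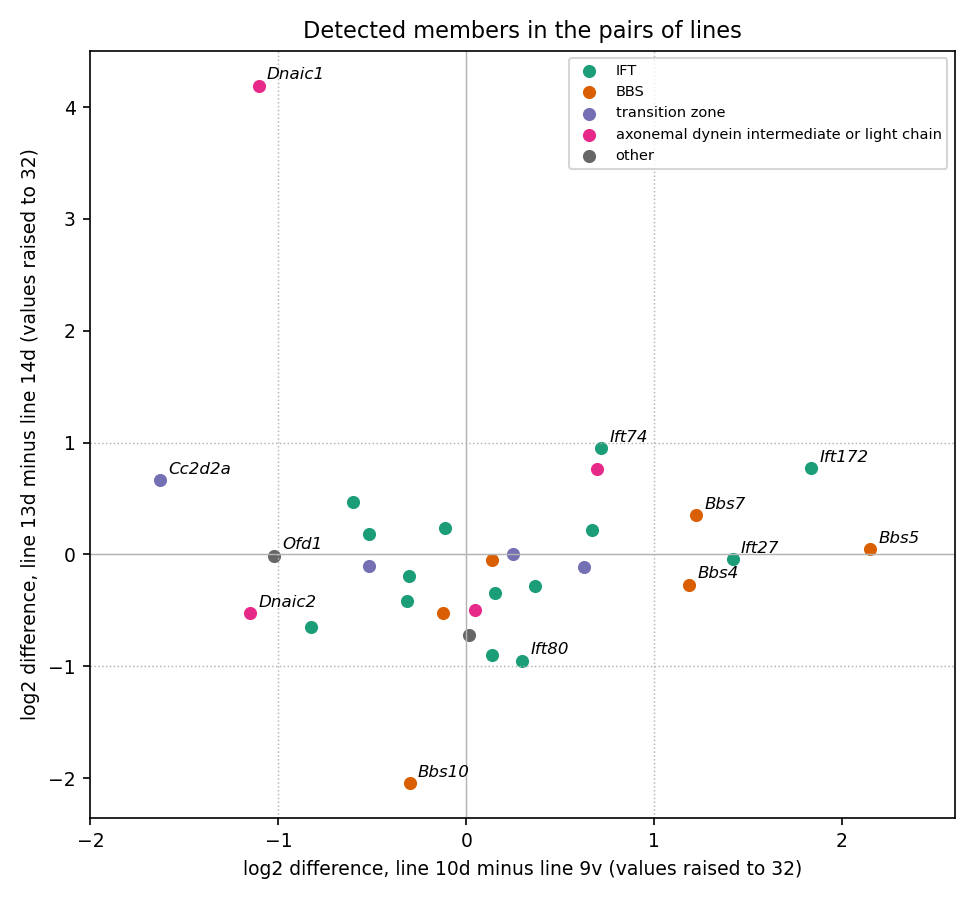
Log2 difference of line 10d minus line 9v (horizontal axis) against that of line 13d minus line 14d (vertical axis) for the 30 members detected in at least 1 line, with values under 32 raised to 32. Dotted lines mark 2-fold; Dnaic1 lies at the upper left, at -1.11 and 4.19, and the members past 2-fold on the right lie between the dotted lines of the vertical axis.

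When the lines were taken as 2 bcat* and 2 WT lines, limma with Benjamini-Hochberg adjustment over 9415 detected genes called no member and no gene (0%) under the labels, where 1 member and 737 genes had an unadjusted p under 0.05. Under the genotypes of the article it again called no member and no gene (0%), with 1 member and 309 genes at that level. The smallest adjusted p of a member was 0.570 under the labels, for Ift172, whose log2 difference of bcat* (10d, 13d) over WT (14d, 9v) was 1.30 (SE 0.36, 95% confidence interval 0.29 to 2.31). Under the article it was 0.984, shared by several members, of which Cc2d2a had the smallest unadjusted p, with a log2 difference of bcat* (10d, 14d) over WT (13d, 9v) of -1.15 (SE 0.35, -2.14 to -0.16). With 2 lines against 2, an exact permutation test of a single gene cannot give a p below 0.333, so that none was made.

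The lines were also sorted by whether the genotypes overlapped. Under the labels, both bcat* lines lay above both WT lines for 5 of 30 members (Bbs5, Bbs7, Dnal4, Ift57 and Ift172), beside 18.4% of all genes, and below them for 4 (Bbs9, Bbs10, Ift46 and Ift81), beside 19.5%. Under the article, both bcat* lines lay above for 8 members (Bbs4, Dnal1, Dync2li1, Ift22, Ift27, Ift52, Ift80 and Tctn3), beside 16.1% of all genes, and below for 4 (Cc2d2a, Ift43, Ift122 and Ift140), beside 14.1%. In the other detected probe sets of Bbs10 and Ift81 the labelled genotypes overlapped, and Bbs5 stood at only 33 in line 13d. A further Bbs4 probe set, at 229, 74, 88 and 112 in lines 10d, 13d, 14d and 9v, overlapped under the article.

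Cilium genes outside the naming rule were mostly detected as well. Of 10 further IFT genes, counting Tulp3, which is an adaptor rather than a subunit, all were detected. In line 10d against line 9v, 1 was at least 2-fold higher (Wdr19) and 2 lower (Hspb11 and Ttc26), with a median log2 difference of -0.60. Wdr19, of IFT-A, had intensities of 128 in line 10d, 78 in line 13d, 90 in line 14d and 43 in line 9v. All 4 detected kinesin-2 genes (Kif3a, Kif3b, Kif3c and Kifap3) were less than 2-fold apart between any lines. Kif3a, a motor subunit of anterograde IFT, had intensities of 697 in line 10d, 771 in line 13d, 1185 in line 14d and 1194 in line 9v, and Kif3c of 353, 364, 599 and 517 in the same order. Of 8 further dynein-2 chains, 6 were detected, and Dynlt3, also a chain of cytoplasmic dynein 1, was at least 2-fold lower in line 10d, at 4764, than in line 9v, at 11518, with 4055 in line 13d and 11963 in line 14d. The light chain Dynll1, shared by many complexes, had intensities of 15349 in line 10d, 26551 in line 13d, 25283 in line 14d and 24047 in line 9v.

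Of 15 measured transition zone and inversin genes outside the rule, 13 were detected, and 1 was at least 2-fold higher (Rpgr) and 1 lower (Ahi1) in line 10d than in line 9v. Ahi1, which encodes the transition zone protein jouberin, had intensities of 425 in line 10d, 665 in line 13d, 855 in line 14d and 1409 in line 9v. Rpgr, a regulator of transport through the connecting cilium, had 105 in line 10d and 37 to 39 in the other lines. Of 21 basal body and ciliogenesis genes, 20 were detected, with Ehd3 at least 2-fold higher and Unc119 at least 2-fold lower in line 10d. Ehd3, a membrane-shaping protein of early ciliogenesis, had intensities of 612 in line 10d, 242 in line 13d, 444 in line 14d and 220 in line 9v.

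Of the motile cilium programme, 24 of 30 measured genes were under the detection level in every line, among them Rsph1, Hydin, Tekt1, Dnaaf1 and Ccdc39. The detected genes were Rfx1, Rfx3, Dnaaf2, Mns1, Rsph9 and Ccdc40. Rsph9, a radial spoke protein, had intensities of 242 in line 10d, 19 in line 13d, 177 in line 14d and 94 in line 9v. Ccdc40, which sets the repeat length of the axoneme, read 4 in both line 10d and line 13d, against 88 in line 14d and 196 in line 9v. Neither followed the order of lines seen for Dnaic1.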

How the data were processed

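RNA of 4 melanocyte lines was measured on 1 Affymetrix array each. The deposited table holds 1 intensity for each of 45037 probe sets, computed by the authors with GCRMA (background correction and normalization between arrays) per the labels, with no version in the sources used here. These intensities are integers whose range shows a linear scale, and they were converted to log2 here. The platform annotation listed 34945 probe sets with 1 gene, 932 with several and 9160 with none. Entrez identifiers placed 34741 of the 34945 in the RefSeq table of GRCm38.p6, and 0 symbols changed. Where a gene had several probe sets, the one with the highest mean log2 intensity stood for it, which left 18193 genes. The detection level was an intensity of 32 (log2 of 5), in either line of a pair or in any of the 4 lines.

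Genotypes were taken from the labels, with the article's genotypes of lines 13d and 14d fitted beside them. Bcat* and WT lines were compared with limma (lmFit, eBayes, Benjamini-Hochberg adjustment, threshold 0.05) over all detected genes. The fit was run on simulated data with large known differences, which does not measure its power for smaller ones. Pairs of lines were compared by fold only. The p-values measure only the spread between these lines, and precision is limited by the number of arrays.

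Members and gene lists were chosen with earlier results of these data known. The rule for named genes took Dnaic1, Foxj1, Arl13b, Cc2d2a, Ofd1, Dync2h1 and Dync2li1, the members at least 2-fold apart over the lines, the brightest member of each class and, of each further list, up to 2 genes with the widest span. Other genes were named after their values were seen. The results were recomputed with all probe sets of a gene averaged, without probe sets with the suffixes _x_at, _s_at and _a_at, which can match more than 1 transcript, with median centring, quantile normalization, detection levels of 16 and 64, thresholds of 1.5-fold and 3-fold, no filter, labelled sex as a block, an intensity trend, and without each line. Python 3.11.15, pandas 2.3.3, NumPy 2.4.6, matplotlib 3.10.9, R 4.3.3 and limma 3.58.1 were used.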

Additional observations from a re-analysis of the deposited data

Results flagged for a closer look

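Dnaic1 moved in opposite directions in the pairs of lines that the labels give as bcat* against WT. Its log2 difference was -1.11 for line 10d minus line 9v, which are both labelled male, and 4.19 for line 13d minus line 14d, which are both labelled female. With 1 array per line, the difference between these pairs was not tested, and sex, line and genotype cannot be told apart. With the genotypes of the article, the second difference would carry the opposite sign, and Dnaic1 would be lower in the bcat* line of both pairs.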

How the results depend on the processing

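No member was called by limma under any of the settings run, which left out the filter, raised values to 32, used quantile normalization or the mean of all probe sets, blocked labelled sex, fitted an intensity trend, took the article's genotypes or left out 1 line (0 in each). Over all genes limma called 0 as labelled, 281 without the filter, of which 243 lay under 32 on all lines, and 6 each after quantile normalization and after averaging the probe sets of a gene. In line 10d against line 9v, 3 members were at least 2-fold higher with the mean of all probe sets, in place of 5. Bbs4 then had a log2 difference of 0.94, and Bbs7 had no detected value. After median centring, 1 member was at least 2-fold lower, in place of 4, with Dnaic1 at -0.91, Dnaic2 at -0.96 and Ofd1 at -0.83. With the values as deposited, 9 members were higher and 6 lower at 1.5-fold, and 2 were higher and 1 lower at 3-fold. The threshold sets these shifts by construction. Over all lines, 23 members were apart at 1.5-fold and 8 at 3-fold, in place of 13. All genes were not counted at these thresholds. Leaving out 1 line, an alternative chosen after seeing the data, gave 8 to 13, the lowest without line 10d. A range over fewer lines cannot widen, and all genes were not counted this way. Of 15 named members with a value, 2 moved by over 1.5-fold: Dnaic2, to a log2 difference of -0.01 when its probe sets were averaged, and Bbs5, to 1.15 at a detection level of 64. No named member at least 2-fold apart between lines 10d and 9v changed sign, while Bbs10 and Dync2li1, which were less apart in this pair, had differences on either side of 0. Beyond these values, the cause of the changes was not tested. Without probe sets with the suffixes _x_at, _s_at and _a_at, Dnaic2, Bbs5 and Ift20 had no detected value, and 4 members were at least 2-fold higher, 3 lower and 10 apart over the lines. No analysis paired by replicate number was made because the labels give none, while the block of labelled sex joins line 10d with 9v and line 13d with 14d. Bbs5, Dnaic2 and Tctn1 lie close to background in some lines, which limits their folds.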

Other observations

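Some cilium-related genes outside the naming rule were near background in lines 10d and 13d and clearly detected in lines 14d and 9v. Unc119, a chaperone that delivers myristoylated proteins to the cilium, had intensities of 13 in line 10d, 18 in line 13d, 726 in line 14d and 430 in line 9v. Gpr161, a ciliary receptor that holds back Hedgehog signalling, had intensities of 5 in line 10d, 6 in line 13d, 69 in line 14d and 98 in line 9v. For both, the bcat* lines as labelled lay below the WT lines as labelled, and limma gave adjusted p values of 0.131 and 0.139, which do not pass the threshold. With the genotypes of the article, the bcat* and WT lines overlapped for both. The limma log2 differences were then 0.14 for Unc119 (adjusted p = 0.997) and -0.38 for Gpr161 (adjusted p = 0.994).

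Of 10 genes of the Hedgehog pathway, 7 were detected, and Gpr161 alone differed 2-fold or more between lines 10d and 9v, being lower in line 10d. Ptch1, the Hedgehog receptor, had intensities of 1581 in line 10d, 953 in line 13d, 708 in line 14d and 818 in line 9v, while Gli1 and Gli2 were under the detection level. Gli3 had intensities of 391 in line 10d, 872 in line 13d, 349 in line 14d and 496 in line 9v. Of 5 genes that take cilia down before division, Hdac6, a tubulin deacetylase, had intensities of 132 in line 10d, 227 in line 13d, 210 in line 14d and 330 in line 9v, and was the only one at least 2-fold apart between lines 10d and 9v. Nek2, a centrosomal kinase, had intensities of 1277 in line 10d, 2773 in line 13d, 868 in line 14d and 1922 in line 9v, so that line 13d was the highest.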
